A study of Triticum aestivum with 12 samples.

Results

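The 8 genes described here are the gamma-gliadin genes of wheat chromosomes 1A, 1B and 1D. They are the gene models that the deposited table describes as a gamma-gliadin, with or without a hyphen, out of 25269 genes in that table. The rule of choice used the gene descriptions and no measured value, but it was set with earlier results of these data known. The mutant group at 30 days held immature grain of the mutant HPm512, which the labels give as high in antioxidant activity, and its counterpart was grain of the wild type Zhoumai22 at the same time. The other groups were the mutant and the wild type at 20 days after anthesis. Each of the 4 groups had 3 RNA sequencing libraries. The sources used here do not give how the mutant was made, how it relates to Zhoumai22 or how many plants or spikes went into a library. Because no label ties the libraries of a group to different plants, a p-value here reflects only the scatter of these libraries, which may be technical.

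Gamma-gliadins are seed storage proteins, rich in glutamine and proline, that are made in the starchy endosperm and laid down in protein bodies during grain filling. With the other gliadins and the glutenins they form gluten, in which the monomeric gliadins add to the viscosity and extensibility of dough. Bread wheat carries A, B and D genomes, and its gamma-gliadin genes lie in clusters with other gliadin genes near the ends of the short arms of the group 1 chromosomes. All 8 members have this same storage role, so they are taken here by chromosome.

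The members are protein-coding genes, and their coordinates are those of the table, whose genome build the sources used here do not give. On 1A, TraesCS1A02G007400 (1A:4033339-4034196) and TraesCS1A02G007405 (1A:4041324-4042181) are both described as Gamma gliadin-A3, both span 858 bp on the plus strand, and have no other gene model between them. On 1B lie Gamma-gliadin 3 (TraesCS1B02G010400, 1B:4965664-4966572, plus strand, 909 bp), Gamma-gliadin 9 (TraesCS1B02G010500, 1B:4991748-4992641, minus strand, 894 bp) and Gamma-gliadin B (TraesCS1B02G011000, 1B:5142047-5142922, plus strand, 876 bp). On 1D lie Gamma-gliadin 12 (TraesCS1D02G001000, 1D:250463-251359, 897 bp), Gamma-gliadin 11 (TraesCS1D02G001100, 1D:259657-260544, 888 bp) and Gamma-gliadin 2 (TraesCS1D02G001200, 1D:321910-322893, 984 bp), all on the minus strand. Gamma-gliadin copies resemble each other, and the sources used here do not give how the authors assigned reads that match several copies. The split of reads between copies is therefore uncertain, above all for the 1A pair, while the sum over the 8 genes is less exposed to it.

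Library totals ran from 59.3 M to 73.6 M reads, and 9244968 to 15187939 of them were counted in the table, whose gene models cover 1A, 1B and 1D. A gene was tested when its level was at least 1 FPKM, the reads per kilobase of gene and per M library reads, in 3 or more of the 12 libraries. This left 5723 of the 25269 genes, among them all 8 members. The 4 endosperm markers, a purothionin, a thionin and a pair of starch synthesis genes, were counted in every group. Their summed level was 5178 ± 440.5 FPKM in the mutant and 1410 ± 16.1 FPKM in the wild type at 30 days, and 5833 ± 1127 FPKM in the mutant and 8389 ± 364 FPKM in the wild type at 20 days (SD, n = 3 each). Most of this sum was the purothionin, a defence peptide of the endosperm, at means of 4778 FPKM in the mutant and 1250 FPKM in the wild type at 30 days. The starch synthesis genes, both described as glucose-1-phosphate adenylyltransferase, stood much closer at 30 days, with means of 82.0 and 44.6 FPKM in the mutant, against 64.4 and 37.3 FPKM in the wild type. The 6 embryo markers, Em proteins and an agglutinin, summed to 1788 ± 652 FPKM in the mutant and 2886 ± 91.3 FPKM in the wild type at 30 days, and to 90.3 ± 57.1 and 66.2 ± 13.2 FPKM in mutant and wild type at 20 days. The 11 green pericarp markers, all chlorophyll a-b binding proteins and 2 of them without a count in any library, summed to 1.13 FPKM in the mutant and 0.211 FPKM in the wild type at 30 days, and to 5.98 FPKM in the mutant and 10.3 FPKM in the wild type at 20 days. These marker sums moved with the groups, and their part in the results was not tested. In whole grain, fewer endosperm cells and less gamma-gliadin RNA per cell cannot be told apart. The counts on ribosomal RNA genes stood at 972 to 1257 RPM (reads per M library reads) in 3 wild-type libraries, replicates 2 and 3 at 20 days and replicate 3 at 30 days, and at 377 to 533 RPM in the other 9.

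Taken as a family, gamma-gliadin transcripts were abundant in 3 of the 4 groups and scarce in wild-type grain at 30 days. In the mutant at 30 days the 8 genes took 1.69%, 2.11% and 2.30% of all library reads, against 0.319%, 0.322% and 0.313% in the wild type. At 20 days they took 1.70%, 1.15% and 2.25% in the mutant, against 2.72%, 2.60% and 2.74% in the wild type. The 30-day libraries of mutant and wild type stood far apart, and at 20 days every mutant library lay below every wild-type library. The mean share was 2.03% ± 0.312 in the mutant and 0.318% ± 0.00438 in the wild type at 30 days, a ratio of 6.39. The 20-day means were 1.70% ± 0.552 in the mutant and 2.69% ± 0.0742 in the wild type, a ratio of 0.632 (SD, n = 3 each). Within the mutant, the 30-day share was 1.20 times the 20-day share and the libraries overlapped (exact permutation p = 0.5, two-sided). Within the wild type, the 30-day share was 0.118 times the 20-day share. For these differences other than the one within the mutant, the two-sided exact permutation test gave p = 0.1, the smallest value that 3 libraries against 3 allow. The spread within the mutant at 20 days was wide, with replicate 2 lowest and replicate 3 highest, and the sum of the endosperm markers there ran from 4936 to 7098 FPKM.

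**Figure D1:**
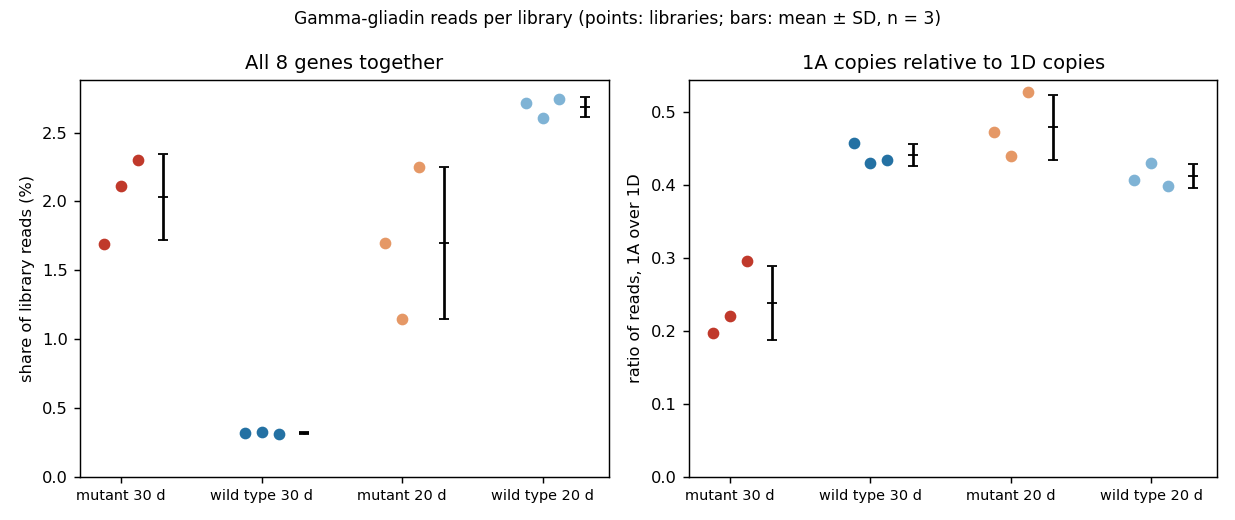
Left, the percent of each library's reads that fell on the 8 gamma-gliadin genes; right, the reads on the 1A copies divided by the reads on the 1D copies. Points are libraries and bars are mean ± SD (n = 3): wild-type libraries at 30 days lie at 0.313% to 0.322%, and the mutant at 30 days has the lowest ratio of 1A to 1D reads, 0.238 on average.

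The 1D copies carried most of the family's reads. Gamma-gliadin 2 had the highest level of the 8 genes in every library. It stood at 9659, 12153 and 12136 FPKM in the mutant at 30 days, against 1549, 1591 and 1548 FPKM in the wild type. The 20-day libraries stood at 8561, 6096 and 10919.8 FPKM in the mutant, against 14843, 13527 and 15088 FPKM in the wild type. Neither pair of groups overlapped. In edgeR's quasi-likelihood test with Benjamini-Hochberg adjustment over the 5723 genes, the 30-day difference between mutant and wild type was a log2 fold change of 3.33 ± 0.27 (SE, adjusted p = 1.62e-06), that is 10.1-fold higher in the mutant. The 20-day difference was -1.05 ± 0.25 (adjusted p = 0.0481), a call kept in 1 of the 12 fits with a library left out, the one without mutant 20-day replicate 3.

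Gamma-gliadin 11 stood at 4639, 5317 and 5814 FPKM in the mutant at 30 days and at 689, 702 and 678.5 FPKM in the wild type at 30 days. Its 20-day levels were 3061, 1888 and 3819 FPKM in the mutant and 4586, 4693 and 4549.9 FPKM in the wild type. Every mutant library was above every wild-type library at 30 days and below every wild-type library at 20 days. Gamma-gliadin 12 was far less abundant, with 474, 615 and 595 FPKM in the mutant and 54.0, 57.7 and 50.9 FPKM in the wild type at 30 days. At 20 days Gamma-gliadin 12 had 326, 263 and 541 FPKM in the mutant and 541, 569 and 536 FPKM in the wild type, and the groups overlapped through mutant replicate 3. At 30 days, mutant over wild type, the log2 fold change was 3.40 ± 0.27 for Gamma-gliadin 11 (adjusted p = 1.39e-06) and 3.85 ± 0.27 for Gamma-gliadin 12 (adjusted p = 7.19e-07, edgeR).

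**Figure D2:**
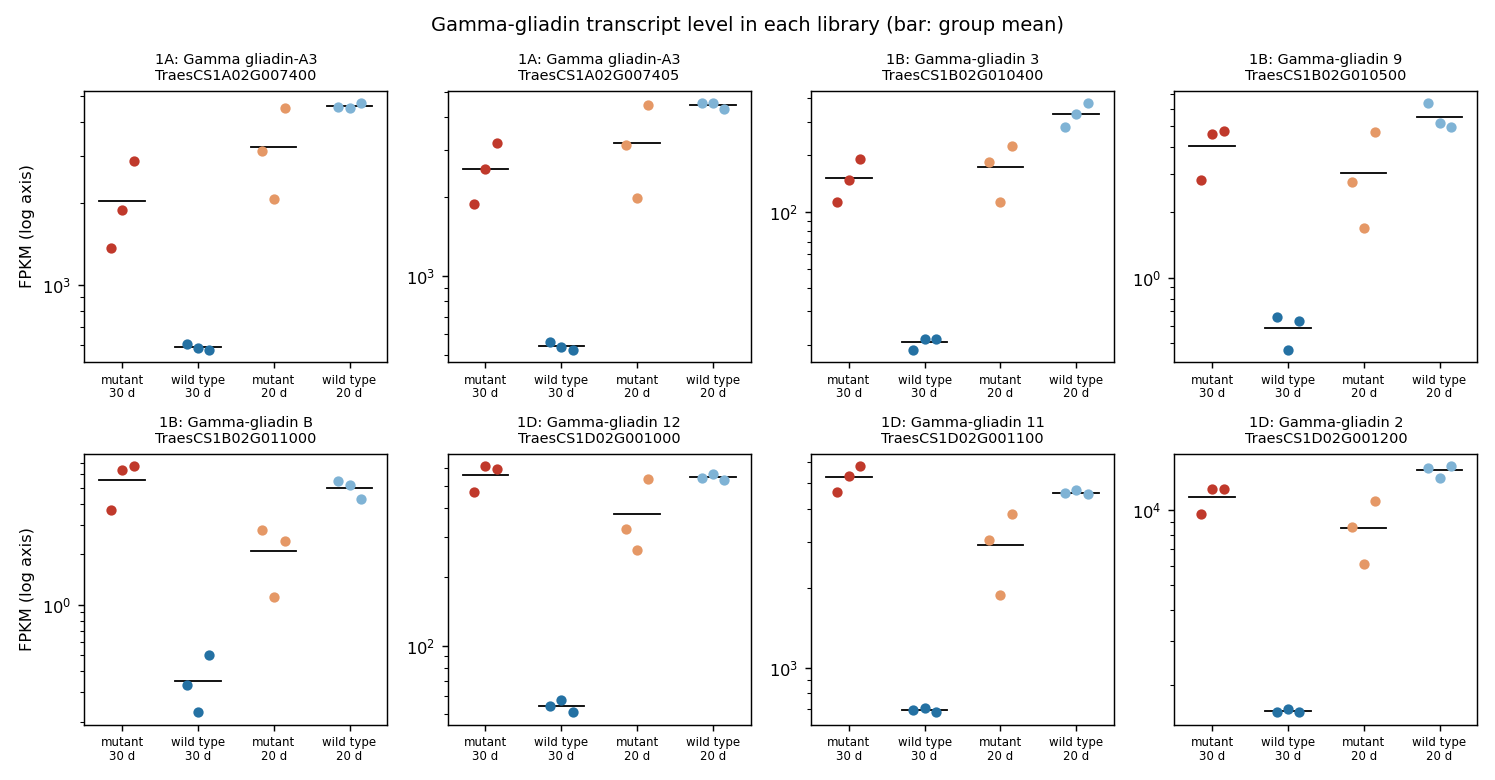
FPKM of each of the 8 genes in each library, on log axes whose range differs between panels; points are libraries and horizontal bars are group means (n = 3). In every panel the 3 wild-type libraries at 30 days are the lowest, and the mutant libraries at 20 days are spread more widely than the wild-type ones.

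Both 1A copies were lowest in the wild type at 30 days and, on average, highest in the wild type at 20 days, with the mutant at either time in between. TraesCS1A02G007400 had 1362, 1889.6 and 2873 FPKM in the mutant at 30 days, against 605, 585 and 575 FPKM in the wild type. Its levels at 20 days were 3136, 2079.98 and 4516 FPKM in the mutant, against 4551, 4504 and 4701 FPKM in the wild type. TraesCS1A02G007405 had 1876, 2547 and 3206 FPKM in the mutant and 561, 538 and 525 FPKM in the wild type at 30 days. The 30-day mutant libraries were all higher than the wild-type ones for both genes. At 20 days TraesCS1A02G007405 had 3156, 1969.9 and 4473 FPKM in the mutant and 4529.8, 4522 and 4315 FPKM in the wild type. For both genes the 20-day groups overlapped through mutant replicate 3, whose level reached that of the wild type. The 30-day difference between mutant and wild type was a log2 fold change of 2.27 ± 0.32 for TraesCS1A02G007400 (adjusted p = 0.000201) and 2.71 ± 0.31 for TraesCS1A02G007405 (adjusted p = 2.8e-05, edgeR), the lowest values among the 8 genes.

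The 1B copies were the least abundant, and the levels of 2 of the 3 were single digits of FPKM throughout. Gamma-gliadin 3 led them with 113, 149 and 190.4 FPKM in the mutant and 18.8, 21.4 and 21.5 FPKM in the wild type at 30 days. Grain at 20 days had 185, 113 and 224 FPKM in the mutant and 281, 330.4 and 377 FPKM in the wild type. Neither pair overlapped. Gamma-gliadin 9 had 2.81, 4.57 and 4.74 FPKM in the mutant and 0.661, 0.466 and 0.627 FPKM in the wild type at 30 days. Its 20-day levels were 2.75, 1.70 and 4.67 FPKM in the mutant, below the 6.36, 5.15 and 4.96 FPKM of the wild type. Gamma-gliadin B had 3.69, 6.33 and 6.73 FPKM in the mutant and 0.329, 0.227 and 0.497 FPKM in the wild type at 30 days, and these wild-type values rest on 20, 15 and 32 reads. In 20-day grain it had 2.78, 1.11 and 2.39 FPKM in the mutant, below the 5.50, 5.19 and 4.26 FPKM of the wild type. At 30 days, mutant over wild type, the log2 fold changes were 3.35 ± 0.28 for Gamma-gliadin 3, 3.25 ± 0.40 for Gamma-gliadin 9 and 4.44 ± 0.43 for Gamma-gliadin B, the largest of the 8 (adjusted p of 1.96e-06, 5.59e-05 and 5.76e-06, edgeR).

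By mean FPKM, Gamma-gliadin 2 led in all 4 groups, then came Gamma-gliadin 11 and the 1A pair in an order that changed with the group, and below them Gamma-gliadin 12, then Gamma-gliadin 3, then the other 1B copies. In the mutant at 30 days Gamma-gliadin 11 was second at 5257 ± 590.0 FPKM, above TraesCS1A02G007405 at 2543 ± 665 and TraesCS1A02G007400 at 2041 ± 767 FPKM. The ranges of the 1A pair overlapped, but within each of these libraries TraesCS1A02G007405 was the higher. In the wild type at 30 days the order was Gamma-gliadin 11 at 690.0 ± 11.8, TraesCS1A02G007400 at 588 ± 15.1 and TraesCS1A02G007405 at 541 ± 18.4 FPKM, with no overlap between these neighbours. In the mutant at 20 days TraesCS1A02G007400 at 3244 ± 1221 FPKM, TraesCS1A02G007405 at 3199 ± 1252 FPKM and Gamma-gliadin 11 at 2923 ± 973 FPKM had overlapping ranges. Within each of these libraries, though, Gamma-gliadin 11 was below both 1A copies. In the wild type at 20 days Gamma-gliadin 11 at 4609.6 ± 74.7, TraesCS1A02G007400 at 4585 ± 103 and TraesCS1A02G007405 at 4455 ± 122 FPKM overlapped from one neighbour to the next (SD, n = 3 each). Gamma-gliadin B was above Gamma-gliadin 9 on average only in the mutant at 30 days. There it was the higher within each library, though the ranges of the pair overlapped.

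At 30 days the whole family was higher in the mutant than in the wild type. All 8 members were called higher in the mutant by edgeR (adjusted p under 0.05), where 13.6% of the 5723 tested genes were called higher. The log2 fold changes ran from 2.27 to 4.44, with a median of 3.34, beside a median of -0.034 over all tested genes. All 8 also had every mutant library above every wild-type library in FPKM, as did 8.33% of the tested genes. As a plain ratio of mean FPKM, which uses library totals and no further scaling, mutant over wild type came to 3.47 for TraesCS1A02G007400, 7.24 for Gamma-gliadin 2 and 15.9 for Gamma-gliadin B. Under library totals alone the median of all tested genes moved to -0.51 in this contrast. All 8 members were still called higher there, as were 412 of the 5723 tested genes.

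At 20 days the difference had the opposite direction and fewer genes passed the test. The mutant was lower than the wild type by edgeR for 3 of the 8 genes, where 1.87% of tested genes were called lower. They were Gamma-gliadin 3 at -1.20 ± 0.26 (adjusted p = 0.0369), Gamma-gliadin B at -1.54 ± 0.36 (adjusted p = 0.047) and Gamma-gliadin 2. The log2 fold changes of the other 5 were -1.13 for Gamma-gliadin 9, -0.94 for Gamma-gliadin 11, -0.82 for Gamma-gliadin 12, -0.78 for TraesCS1A02G007400 and -0.75 for TraesCS1A02G007405, with adjusted p of 0.0665 to 0.171. The median of the 8 was -0.99, beside 0.011 over all tested genes, and all 8 had an unadjusted p under 0.05, as had 1230 of the 5723 tested genes (21.5%). In FPKM, every mutant library was below every wild-type library for 5 members (Gamma-gliadin 2, 3, 9, 11 and B), as for 4.3% of tested genes. The calls turned on single libraries, while the log2 fold changes of the 3 genes stayed below 0 in each alternative run. With a library left out they ran from -1.49 to -0.93 for Gamma-gliadin 3, from -1.79 to -1.20 for Gamma-gliadin B and from -1.34 to -0.82 for Gamma-gliadin 2. Without mutant 20-day replicate 3 all 8 genes were called lower. None was called without mutant 20-day replicate 1 or 2, or without any 1 of the 3 wild-type 20-day libraries. Nor was any called without wild-type 30-day replicate 1 or 2. Without mutant 30-day replicate 1 or wild-type 30-day replicate 3 the count was 2, and without mutant 30-day replicate 2 or 3 it was 1. The share of all tested genes called lower in these fits is not given, so the counts are not read as particular to the members. The fit without the 3 libraries rich in ribosomal RNA kept only replicate 1 of the wild type at 20 days. Its log2 fold changes were -1.016 for Gamma-gliadin 3, -1.723 for Gamma-gliadin B and -1.125 for Gamma-gliadin 2.

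Between 30 and 20 days the cultivars differed in course. In the wild type all 8 members were called lower at 30 days (edgeR), where 31.9% of tested genes were called lower. Their log2 fold changes ran from -4.24 for Gamma-gliadin 3 to -2.98 for Gamma-gliadin 11, with a median of -3.46, beside -0.009 over all genes. Every 30-day library was below every 20-day library for all 8, as for 28% of tested genes. Gamma-gliadin 2 was 11-fold lower and Gamma-gliadin 11 was 7.89-fold lower at 30 days by these fits, and 5.27-fold and 3.80-fold lower with equal FPKM totals, where the median over all tested genes moved to 1.04 on the log2 scale.

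In the mutant 5 of the 8 were called higher at 30 days than at 20 days (edgeR), where 29.9% of tested genes were called higher. They were Gamma-gliadin B at 1.94 ± 0.37, Gamma-gliadin 11 at 1.36 ± 0.25, Gamma-gliadin 12 at 1.09 ± 0.25, Gamma-gliadin 2 at 0.93 ± 0.25 and Gamma-gliadin 9 at 0.92 ± 0.36 (adjusted p of 0.00043 to 0.0406). Gamma-gliadin 3 had a log2 fold change of 0.31 (adjusted p = 0.317), TraesCS1A02G007405 0.18 (adjusted p = 0.617) and TraesCS1A02G007400 -0.15 (adjusted p = 0.694). The call of Gamma-gliadin 9 was lost without mutant 20-day replicate 1 or 2, mutant 30-day replicate 2 or 3, or any 1 of the 3 wild-type 20-day libraries (adjusted p up to 0.149). The median of the 8 was 0.92, beside 0.076 over all tested genes. In FPKM 2 members, Gamma-gliadin B and Gamma-gliadin 11, had every 30-day mutant library above every 20-day mutant library, as had 15.5% of tested genes. This contrast depended on scaling. The TMM factors, which even out composition between libraries, averaged 0.806 in the mutant at 30 days and 1.17 at 20 days. With library totals alone the median of all genes moved to -0.46, and 3 members were called higher (Gamma-gliadin B, 11 and 12) and 1, TraesCS1A02G007400, lower at -0.67 (adjusted p = 0.0499), where 13.5% of tested genes were called higher and 47.3% lower. With equal FPKM totals the same gene was lower at -0.82 (adjusted p = 0.00461, edgeR), and 515 of the 5723 tested genes were called higher and 2955 lower. The contrasts at 30 days and within each cultivar share libraries, so their values are set side by side and are not independent.

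The change of the cultivar difference with time was tested on its own, as the log2 fold change of 30 over 20 days in the mutant minus that in the wild type. All 8 members were called higher (edgeR), where 13.1% of tested genes were. The estimates ran from 3.05 ± 0.44 for TraesCS1A02G007400 (adjusted p = 0.000298) to 5.98 ± 0.56 for Gamma-gliadin B (adjusted p = 5.71e-06). Their median was 4.38, beside -0.021 over all tested genes. On 1D the estimates lay between 4.34 and 4.66, on 1B between 4.38 and 5.98, and on 1A they were 3.05 and 3.46. The smallest estimates of the 8 were thus those of the 1A copies. The size of the estimates depended on scaling. With equal FPKM totals they ran from 1.33 for TraesCS1A02G007400 to 4.24 for Gamma-gliadin B, and the median over all tested genes moved to -1.81.

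**Figure D3:**
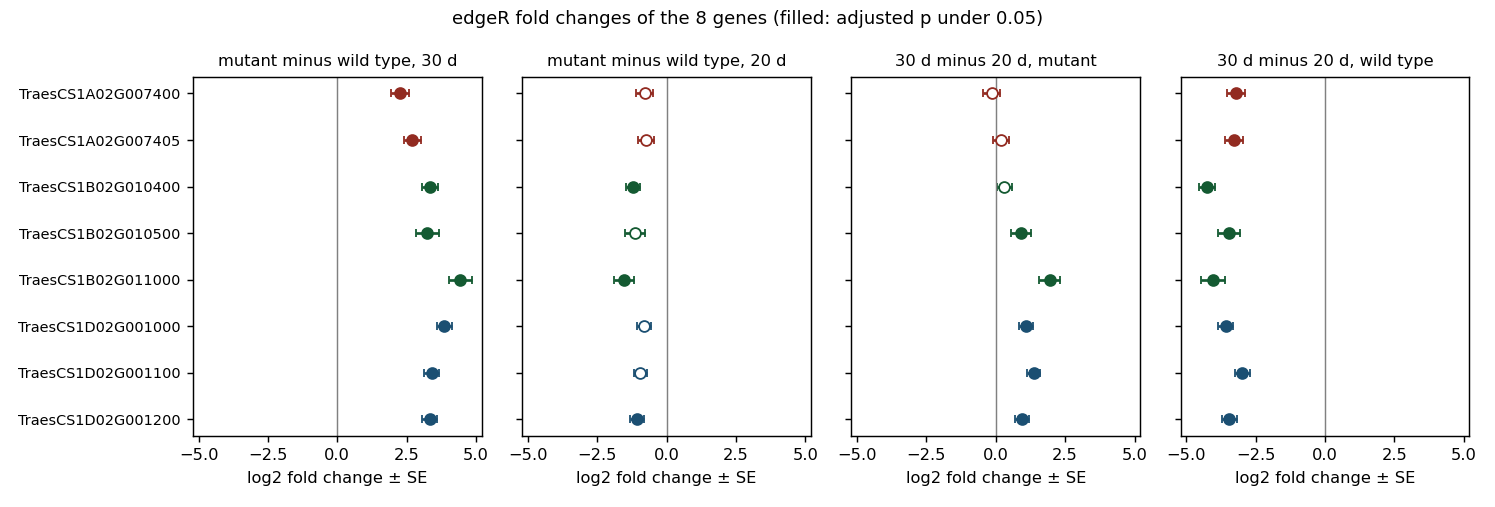
Log2 fold change (edgeR, ± SE) of each gene in the 4 contrasts; filled points have an adjusted p under 0.05, and colours mark chromosome 1A (red), 1B (green) and 1D (blue). All points lie right of 0 for mutant over wild type at 30 days (2.27 to 4.44) and left of 0 at 20 days (-1.54 to -0.75).

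The share that each chromosome's copies took of the family's reads stood apart in the mutant at 30 days. There the 1A copies took 16.4%, 18.0% and 22.6% of gamma-gliadin reads, against 29.9% to 31.2% in the wild type at 30 days. At 20 days they took 30.2% to 34.2% in the mutant and 28.2% to 29.7% in the wild type. Means were 19.0% ± 3.24 in the mutant and 30.4% ± 0.731 in the wild type at 30 days, and 32.1% ± 2.00 in the mutant and 28.8% ± 0.802 in the wild type at 20 days (SD, n = 3 each). The 1A share was thus lower than in the wild type at 30 days and slightly higher at 20 days, with no overlap at either time. The 1D copies took 83.0%, 81.3% and 76.6% in the mutant at 30 days, against 68.2% to 69.5% in the wild type at 30 days. At 20 days they took 64.9% to 68.8% in the mutant and 69.1% to 70.5% in the wild type. The 1B copies never took more than 1.28% of the family's reads.

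**Figure D4:**
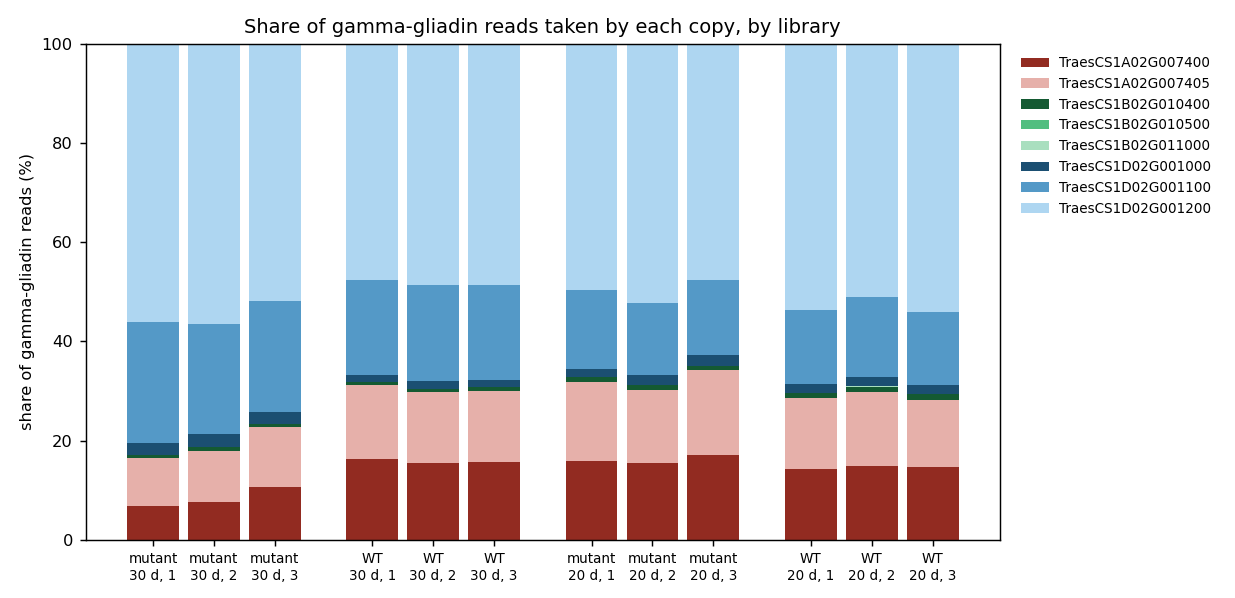
Percent of all gamma-gliadin reads that fell on each copy, in each library (1A red, 1B green, 1D blue). The 3 mutant libraries at 30 days have a 1A part of 16.4% to 22.6%, and the other 9 libraries have one of 28.2% to 34.2%.

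In exact permutation tests stratified by time or cultivar, which allow 400 arrangements and no p below 0.005, the 1A share gave no difference that passed for mutant against wild type on average over both times (-4.09 points, two-sided exact p = 0.16, adjusted p = 0.175 over 12 such tests). Nor did it pass for 30 against 20 days on average over both cultivars (-5.75 points, exact permutation p = 0.1, adjusted p = 0.15). A test added after the shares were seen took the change of the cultivar difference with time, permuting cultivar labels within each time. It gave -14.6 points for the 1A share and 14.3 points for the 1D share, each with an exact permutation p = 0.005, the smallest possible, and an adjusted p of 0.02. These 2 shares nearly sum to the whole, so they are a single pattern. The 1B share averaged 0.707% ± 0.0794 in the mutant and 0.613% ± 0.0475 in the wild type at 30 days, against 0.954% ± 0.0554 in the mutant and 1.15% ± 0.154 in the wild type at 20 days. It was lower at 30 days than at 20 days by the test stratified by cultivar (-0.391 points, exact permutation p = 0.005, adjusted p = 0.02), and between mutant and wild type the difference was -0.0499 points (exact permutation p = 0.475). Counting error alone was small, with 95% Wilson intervals of at most 0.194 points on either side of a chromosome's share, which cover counting error only.

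The balance between copies of the same chromosome was compared as well. TraesCS1A02G007400 had 0.726, 0.742 and 0.896 reads for each read of TraesCS1A02G007405 in the mutant at 30 days, against 1.08, 1.09 and 1.10 in the wild type. At 20 days the ratio averaged 1.02 ± 0.0322 in the mutant and 1.03 ± 0.0517 in the wild type. The difference, mutant minus wild type, was -0.299 at 30 days (exact permutation p = 0.1, the smallest possible) and -0.0103 at 20 days (exact permutation p = 0.8). In tests added after the data were seen, the average difference over both times was -0.155 (exact permutation p = 0.04, adjusted over 12 tests 0.096) and the change of the difference with time was -0.288 (exact permutation p = 0.065, adjusted 0.13). On 1D the FPKM of Gamma-gliadin 11 over that of Gamma-gliadin 2 averaged 0.466 ± 0.0243 in the mutant and 0.442 ± 0.00348 in the wild type at 30 days, and 0.339 ± 0.0256 in the mutant and 0.319 ± 0.0244 in the wild type at 20 days (SD, n = 3 each). The 6 libraries at 30 days lay at 0.438 to 0.480 and the 6 at 20 days at 0.302 to 0.358, a separation by time that was seen in both cultivars and not tested.

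The 1A copies were set against their neighbours on 1A as well. Their summed FPKM over that of TraesCS1A02G007300, a gene model with nutrient reservoir activity among its ontology terms, was 1.02 ± 0.202 in the mutant and 1.98 ± 0.0424 in the wild type at 30 days. The ratio at 20 days was 1.66 ± 0.0725 in the mutant and 1.44 ± 0.0942 in the wild type. Over TraesCS1A02G007700, which carries the same ontology term, it was 1.21 ± 0.277 and 1.51 ± 0.0615 in mutant and wild type at 30 days, where the mutant ran from 0.958 to 1.51 and overlapped the wild type at 1.47 to 1.58. At 20 days this ratio was 1.29 ± 0.219 in the mutant and 1.23 ± 0.0407 in the wild type. In the members' stretch and the 10 gene models on either side, 8 of 20 other models on 1A, 5 of 24 on 1B and 10 of 20 on 1D were tested, and 4, 16 and 5 had no count in any library. Over the chromosomes as a whole 43.9%, 34.3% and 46.0% of gene models were tested.

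The table holds 38 other genes whose description names storage proteins or whose ontology terms hold nutrient reservoir activity, of which 13 were tested and 20 had no count in any library. By its wording this list takes in a storage protein activator, which is named for regulating storage protein genes. At 30 days all 13 were called higher in the mutant than in the wild type, with a median log2 fold change of 2.79, beside 3.34 for the gamma-gliadins. At 20 days 3 of the 13 were called lower in the mutant, both genes described as Globulin 1 and TraesCS1B02G084300, and the median was -0.99. In the wild type all 13 were called lower at 30 than at 20 days, with a median of -3.54. In the mutant 3 were called higher and 2 lower, the activator among the lower, with a median of 0.43. Of all tested genes, 13.6% were called higher in the mutant at 30 days and 1.87% lower at 20 days. Between 30 and 20 days 31.9% were called lower in the wild type. Within the mutant 29.9% were called higher and 1597 of 5723 lower, so the mutant counts are not read as particular to these genes. Without the activator 12 of 12 were called higher in the mutant than in the wild type at 30 days and 3 of 12 lower at 20 days, 12 of 12 were lower at 30 than at 20 days in the wild type, and 3 were higher and 1 lower at 30 days in the mutant. Their median log2 fold changes were 2.83 between cultivars at 30 days, -0.99 between cultivars at 20 days, 0.46 within the mutant and -3.36 within the wild type. The 3 most abundant were TraesCS1D02G000700, TraesCS1A02G007700 and TraesCS1A02G007300. TraesCS1D02G000700, described as a gliadin/avenin-like seed protein, averaged 4761 ± 213 FPKM in the mutant and 909 ± 20.7 FPKM in the wild type at 30 days. Its 20-day mean was 4867 ± 1698 FPKM in the mutant and 6965 ± 393 FPKM in the wild type. Its 30-day log2 fold change, mutant over wild type, was 2.86 ± 0.25 (adjusted p = 2.92e-06, edgeR), against 2.79 ± 0.28 for TraesCS1A02G007700 and 3.43 ± 0.29 for TraesCS1A02G007300. The storage protein activator TraesCS1D02G332200, singled out after its values were seen, had 1.49 ± 0.106 FPKM in the mutant and 0.318 ± 0.0965 FPKM in the wild type at 30 days. Its 20-day level was 5.85 ± 2.74 FPKM in the mutant and 5.88 ± 1.24 FPKM in the wild type. It was higher in the mutant at 30 days (log2 fold change 2.69 ± 0.37, adjusted p = 0.000145, edgeR), and in the mutant it was lower at 30 than at 20 days (-1.45 ± 0.32, adjusted p = 0.00172), where 5 gamma-gliadins were called higher.

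Across the 12 libraries, the gene models whose log2(FPKM + 1) ran most like that of the summed family were TraesCS1A02G007300 and TraesCS1D02G009400, each at a Pearson r of 0.999. They were followed by TraesCS1D02G000300, TraesCS1D02G009900 and TraesCS1A02G008000 at 0.996, TraesCS1D02G000200 at 0.994 and TraesCS1D02G000700 and TraesCS1D02G001400 at 0.992. The table gives no description for 7 of these 8. Of the 5063 gene models compared, 51 had an r of at least 0.95. These values describe 12 libraries in 4 groups, share each library's depth and scaling, and carry no test.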

How the data were processed

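RNA from immature grain of 12 libraries, 3 in each of 4 groups taken from the labels, was extracted with Trizol and made into libraries with an Illumina TruSeq kit, per the labels' protocols. Per the submitters' processing notes, cutadapt 1.9 removed adapters and FastQC checked the reads. No aligner, counter or build is given in the sources used. The authors deposited 1 table with whole-number read counts and FPKM per gene, per the file headers. In the values deposited, FPKM is the count divided by gene length and library total, with 0.0001 where the count is 0. An incomplete last line of 25270 was left out. Since the table holds part of each library, totals came from dividing count by FPKM for 43 non-coding genes with 100 or more counts per library (spread 0.23%).

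Genes at 1 FPKM or higher in 3 or more libraries were tested with edgeR 4.0.16's quasi-likelihood test (R 4.3.3) on the counts, in a single fit of all 12 libraries with group means and TMM factors on those totals. Calls were made at a Benjamini-Hochberg adjusted p under 0.05 over 5723 genes, with a common biological coefficient of variation of 21.2%. The SE of a log2 fold change is its size divided by the square root of the F statistic. The script was tested on simulated data. Shares were compared by exact permutation over libraries. Alternatives used limma 3.58.1, DESeq2 1.42.0, other scalings and filters, a replicate block, and each library left out. The text names all 8 members, the 8 gene models most like them by Pearson r over the libraries, and the 3 most abundant of the other storage protein genes found by description or ontology term. The members, lists and tests were chosen with earlier results of these data known. None of the 8 identifiers (0) matched the reference table of gene names, so names are those of the deposited table.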

Additional observations from a re-analysis of the deposited data

Results flagged for a closer look

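The difference between mutant and wild type changed with time for every gamma-gliadin gene, by a test of that change itself (edgeR quasi-likelihood test, Benjamini-Hochberg adjusted over 5723 genes). The change, the log2 fold change of mutant over wild type at 30 days minus that at 20 days, was 3.05 for TraesCS1A02G007400 and 3.46 for TraesCS1A02G007405. On 1B it was 4.55 for Gamma-gliadin 3, 4.38 for Gamma-gliadin 9 and 5.98 for Gamma-gliadin B. On 1D it was 4.66 for Gamma-gliadin 12, 4.34 for Gamma-gliadin 11 and 4.38 for Gamma-gliadin 2. The adjusted p ran from 1.77e-06 to 0.000298, and 13.1% of all tested genes were called in this direction. With equal FPKM totals the change was smaller, from 1.33 for TraesCS1A02G007400 to 4.24 for Gamma-gliadin B.

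The make-up of the family changed with it. The share of gamma-gliadin reads on the 1A copies was lower in the mutant than in the wild type at 30 days and higher at 20 days, a change of -14.6 points. The share on the 1D copies changed by 14.3 points the other way. Both had an exact permutation p = 0.005, the smallest that the 400 arrangements of cultivar labels within each time allow. These arrangements assume no cultivar effect at either time, and the test was added after the shares were seen.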

How the results depend on the processing

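The mutant and wild type at 30 days, the wild type at 30 against 20 days, and the change of the cultivar difference with time each had all 8 genes called in the same direction under every alternative run and with each of the 12 libraries left out. The 20-day difference between mutant and wild type did not hold in this way. Against 3 genes lower, DESeq2 and limma on log2(FPKM + 1) each called 6. The replicate block and the fit on only the 6 libraries of these groups each called 0. A fit without the 3 libraries richest in ribosomal RNA, added after seeing the data, kept only 1 wild-type library at 20 days. Its log2 fold changes were -1.016 for Gamma-gliadin 3, -1.723 for Gamma-gliadin B and -1.125 for Gamma-gliadin 2. With a library left out the count of members called lower ranged from 0 to 8, and the share of all tested genes called lower in those fits is not given. All 8 genes had an unadjusted p under 0.05 in the reported fit, as had 21.5% of all tested genes. Over all genes, 107 of the 131 calls of this contrast were lower in the reported fit, and 314 of 535 by DESeq2. By limma 134 of 1685 calls were lower with a pseudocount of 1 and 105 of 1415 with a pseudocount of 0.1. With library totals alone 123 of 1515 calls were lower, and with equal FPKM totals 67 of 3435. The replicate block had 20 lower of 21 calls, and the fit on the 6 libraries 2 of 2. For the mutant at 30 against 20 days, limma at either pseudocount and the fit on 6 libraries each called 3 genes higher instead of 5. Of the 5723 tested genes, limma called 826 higher with a pseudocount of 1 and 811 with 0.1. The fit on 6 libraries called 1524 higher, against 1711 in the reported fit. Leaving out a library gave 4 to 5 members, with no share of all tested genes given. Library totals alone and equal FPKM totals each called 3 higher and 1 lower, TraesCS1A02G007400, at -0.67 and -0.82. In that contrast TraesCS1A02G007405 turned to -0.33 with library totals alone, -0.47 with equal FPKM totals and -0.29 with limma at either pseudocount. Gamma-gliadin 3 turned to -0.21, -0.36 and -0.18 under the same settings, and leaving out single libraries spread TraesCS1A02G007400 from -0.54 to 0.24 and TraesCS1A02G007405 from -0.11 to 0.58. None of these turned values was called. The cause was not tested. Over the single-gene fold changes, other settings left 391 on their side of the threshold and in their direction. They took 22 out of the calls, brought 11 in and turned the direction of 8. With a library left out these numbers were 437, 34, 5 and 4. Gamma-gliadin 9 lost its call for the mutant at 30 against 20 days under 8 of 11 other settings (adjusted p 0.0502 to 0.461 in these). Gamma-gliadin 2 lost its call in this contrast under 5 of 11 (largest adjusted p 0.168).

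The replicate numbers do not pair the libraries by any label, and of 18 same-numbered pairs 3 had deviations that correlated above 0.1 (r from -0.133 to 0.346). The block lowered the 20-day count from 3 to 0, with log2 fold changes of -1.23 for Gamma-gliadin 3, -1.60 for Gamma-gliadin B and -1.08 for Gamma-gliadin 2 (adjusted p 0.0503 to 0.0723), and changed no other count of members. The shares kept their direction under every alternative run. The chromosome shares of the family's reads also kept their side of the threshold. For the family's share of library reads, no exact permutation p below 0.1 was possible. Its side of the threshold was therefore fixed in advance. With equal FPKM totals the median of all genes moved to -1.14 for mutant over wild type at 30 days, and the split of calls in that contrast went to 238 higher and 4321 lower, against 780 and 532 with TMM, while the 8 members ran from 1.15 to 3.32 there. Gamma-gliadin 9 and B rest on 15 to 41 reads per library in the wild type at 30 days, which limits their fold changes.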
